A study of Mus musculus with 6 samples.

Results

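Apoe, Trem2, Gpnmb, Spp1, Fabp5, Lpl, Abcg1, Abca1, Cd36 and Cd9 were followed as a set of 10 lipid-handling macrophage genes, out of 32285 genes counted in each library. They were taken by gene symbol, and all 10 were found. Their unique molecular identifiers (UMIs, the molecules counted in each droplet) were summed over cells gated as myeloid in 6 single-cell RNA libraries of mouse colon. The gate used none of the 10 genes.

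Macrophages take up lipoproteins, dying cells and free fatty acids, and must then store, burn or export the lipid. Cholesterol leaves the cell through the transporters ABCA1 and ABCG1 onto lipoprotein particles that carry apolipoprotein E. TREM2, a receptor for lipids and lipoproteins, is needed for the lipid-associated macrophage state described in fat tissue and in atherosclerosis, in which Gpnmb, Spp1, Fabp5, Lpl, Cd36 and Cd9 are commonly high. In the healthy colon, macrophages clear dying epithelial cells, and many are replaced from blood monocytes.

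The study transplanted mice with bone marrow alone (BM) or with bone marrow and spleen cells, which brings on graft-versus-host disease (GVHD), the attack of donor T cells on the recipient's tissues. It also used wild-type (WT) recipients and recipients lacking interleukin 34 (IL34KO), a ligand of the macrophage receptor CSF1R, to ask how IL-34 acts on macrophages and T cells in the gut. The macrophage libraries, 1 each for BM, GVHD, WT and IL34KO, came from donor CD11b+ CD64+ cells, and the T-cell libraries, 1 each for WT and IL34KO, from sorted donor T cells. The IL-34 deletion is thus in the recipient and not in the sorted donor cells. Strain, age, time after transplant, the number of mice in a library and the graft given to the WT and IL34KO recipients are not stated in the labels. Kits that read either end of a transcript are named, without which one made which library. With 1 library in each group no test between groups was possible, and every interval below is an exact 95% interval for counting error only, which leaves out differences between mice and between preparations.

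Of 5874 BM barcodes 2502 also occurred in the GVHD library, and 2486 of these held more UMIs there, so the shared barcodes were dropped from BM. Other pairs of libraries shared 5 to 75 barcodes. The gate left 1966 BM, 2301 GVHD, 4163 WT and 4567 IL34KO cells of the macrophage libraries, and 8092 WT and 4847 IL34KO cells of the T-cell libraries. Myeloid cells therefore made up 62.7% and 60.5% of the filtered cells of the libraries sorted for T cells, against their label. Gated cells held a median of 6777.5 to 16887 UMIs, lowest in the WT T-cell library and highest in GVHD. Itgam and Fcgr1, which encode CD11b and CD64, are among the 12 gate genes, so their presence in gated cells is no independent check of the sort. Itgam had a UMI in 68.4% to 87.2% of gated cells of the macrophage libraries and Fcgr1 in 49.4% to 67.9%. T-cell marker genes summed to 9.33 to 80.9 CPM (UMIs of a gene per 1000000 UMIs of the library's gated cells). Neutrophil marker genes summed to 2269 CPM in WT and 4663 CPM in IL34KO macrophages and to 98.1 to 189 CPM in the other 4 libraries, with none of the 9 markers at 0 in any library. Il34 itself had 0.954 CPM (0.748 to 1.2) over all filtered cells of the WT macrophage library and 1.8 CPM (1.52 to 2.12) in the library labelled IL34KO, and 0.762 CPM (0.588 to 0.971) and 1.14 CPM (0.881 to 1.45) in the T-cell libraries labelled WT and IL34KO. BM and GVHD had 1.54 CPM (1.13 to 2.05) and 0.389 CPM (0.238 to 0.601). It was not lower under the IL34KO label, and the labels do not say which part of the gene the deletion removes, so direction below refers to the library labelled IL34KO.

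The sequences just before the starts of 5 of the genes are shown because the levels of Apoe, Trem2 and Abca1 each followed Gpnmb across clusters (Pearson r of 0.83, 0.76 and 0.75, described below), and Spp1 did so less closely (0.46). Trem2 itself followed Spp1 (0.52) more than Abca1 (0.42). Each is the 250 bases upstream of the first listed RefSeq start on GRCm38.p6, written 5′ to 3′ on the gene's strand. Apoe had 3 listed starts and Spp1 had 2, and windows of the later ones were not searched. RefSeq windows were matched for 7 of the 10 genes. Capitals mark matches to 6 short motifs: the E-box CACGTG, the M-box CATGTG, the nuclear receptor half-site AGGTCA, the AP-1 site TGANTCA, the PU.1 site GAGGAAG and the TATA box TATAAA. The TATA box was sought on the gene's strand only, and the other motifs on either strand. The lines are Apoe at chr7:19699189-19699438 (minus strand), Trem2 at chr17:48346151-48346400 (plus), Gpnmb at chr6:49036268-49036517 (plus), Abca1 at chr4:53159896-53160145 (minus) and Spp1 at chr5:104434861-104435110 (plus).
Apoe: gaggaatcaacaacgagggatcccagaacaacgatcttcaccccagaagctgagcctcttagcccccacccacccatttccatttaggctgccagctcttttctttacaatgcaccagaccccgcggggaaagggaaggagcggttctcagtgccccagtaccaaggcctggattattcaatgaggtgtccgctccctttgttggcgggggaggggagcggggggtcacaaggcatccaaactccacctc
Trem2: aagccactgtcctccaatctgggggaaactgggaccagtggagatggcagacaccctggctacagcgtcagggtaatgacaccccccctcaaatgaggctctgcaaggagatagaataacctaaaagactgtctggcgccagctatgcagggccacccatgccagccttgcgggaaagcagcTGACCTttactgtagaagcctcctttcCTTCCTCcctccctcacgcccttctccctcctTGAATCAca
Gpnmb: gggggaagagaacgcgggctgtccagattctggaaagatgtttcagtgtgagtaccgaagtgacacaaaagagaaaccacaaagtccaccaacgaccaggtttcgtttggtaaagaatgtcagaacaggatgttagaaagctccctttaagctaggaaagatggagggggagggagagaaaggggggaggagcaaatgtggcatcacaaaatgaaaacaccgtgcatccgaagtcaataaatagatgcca
Abca1: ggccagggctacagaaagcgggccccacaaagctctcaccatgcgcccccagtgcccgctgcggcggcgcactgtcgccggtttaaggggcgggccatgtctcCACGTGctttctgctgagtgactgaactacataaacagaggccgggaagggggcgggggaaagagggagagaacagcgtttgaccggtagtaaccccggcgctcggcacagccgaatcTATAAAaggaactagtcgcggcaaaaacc
Spp1: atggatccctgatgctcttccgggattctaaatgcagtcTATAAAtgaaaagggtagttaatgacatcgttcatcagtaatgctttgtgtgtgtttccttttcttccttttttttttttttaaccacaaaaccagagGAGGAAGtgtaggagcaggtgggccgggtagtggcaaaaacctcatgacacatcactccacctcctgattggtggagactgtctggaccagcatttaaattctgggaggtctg
Trem2 held the half-site (as TGACCT), the PU.1 letters (as CTTCCTC) and the AP-1 letters (as TGAATCA), Abca1 held the E-box and the TATA letters, and Spp1 held the PU.1 and TATA letters. The windows of Apoe and Gpnmb held none of the 6. Of 27025 such windows, 13.8% held the half-site, 10.4% the PU.1 letters, 6.87% the AP-1 letters, 6.05% the E-box, 12.2% the M-box and 8.12% the TATA letters, so a match describes the letters and no more. These were the first listed window of each gene, and not every chromosome was covered.

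Apoe, which encodes the apolipoprotein on which exported cholesterol travels, had 21011 CPM in BM, 4995 in GVHD, 4127 in WT macrophages and 1753 in IL34KO macrophages, and 8051 and 8189 in the myeloid cells of the WT and IL34KO T-cell libraries. BM stood highest and IL34KO macrophages lowest, and no 2 of the 6 counting intervals overlapped. The gene lies on chromosome 7, from 19696109 to 19699188 of the mm10 build, on the minus strand. Of the other genes, Trem2 and Abcg1 lie on chromosome 17, Gpnmb and Cd9 on 6, Spp1 and Cd36 on 5, Fabp5 on 3, Lpl on 8 and Abca1 on 4.

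The other efflux genes did not share that order. Abca1, the transporter that loads cholesterol onto lipid-poor apolipoproteins, had 616 CPM in BM, 375 in GVHD, 519 in WT macrophages and 477 in IL34KO macrophages, and 660 and 616 in the WT and IL34KO T-cell libraries. Its lowest level was in GVHD, and BM and the IL34KO T-cell library had overlapping intervals. Abcg1, which passes cholesterol to mature particles, was lowest in BM at 65.2 CPM, against 113 in GVHD, 101 in WT macrophages and 83.9 in IL34KO macrophages and 118 and 115 in the WT and IL34KO T-cell libraries. The intervals of the 3 highest libraries, GVHD and both T-cell libraries, overlapped.

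Of the receptors, Trem2 had 152 CPM in BM, 221 in GVHD, 178 in WT macrophages and 146 in IL34KO macrophages, and 249 and 257 in the WT and IL34KO T-cell libraries. BM and IL34KO macrophages were the low libraries, with overlapping intervals, and the T-cell libraries at the top also overlapped. Cd36, a scavenger receptor that takes up oxidised lipoproteins and long-chain fatty acids, went the other way between BM and GVHD, with 464 CPM in BM, 225 in GVHD, 177 in WT macrophages and 119 in IL34KO macrophages, and 155 and 181 in the WT and IL34KO T-cell libraries. Its intervals in WT macrophages and the IL34KO T-cell library overlapped. The tetraspanin Cd9 had 282 CPM in BM, 404 in GVHD, 504 in WT macrophages and 468 in IL34KO macrophages, and 520 and 702 in the WT and IL34KO T-cell libraries, where the last stood apart from the rest.

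Lpl encodes the lipase that frees fatty acids from triglyceride-rich particles, and Fabp5 a carrier of fatty acids inside the cell. Lpl had 113 CPM in BM, 233 in GVHD, 251 in WT macrophages and 250 in IL34KO macrophages, and 254 and 250 in the WT and IL34KO T-cell libraries. The last 4 levels had overlapping intervals, and BM alone was far below. Fabp5 ran from 155 CPM in BM over 516 in GVHD, 671 in WT macrophages and 751 in IL34KO macrophages to 1065 and 966 in the WT and IL34KO T-cell libraries.

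Gpnmb, a lysosomal and surface glycoprotein, had 129 CPM in BM, 201 in GVHD, 144 in WT macrophages and 98.6 in IL34KO macrophages, and 212 and 219 in the WT and IL34KO T-cell libraries. The T-cell libraries overlapped at the top and IL34KO macrophages stood lowest. Spp1, which encodes the secreted protein osteopontin, had 30.5 CPM in BM, 140 in GVHD, 106 in WT macrophages and 127 in IL34KO macrophages, and 169 and 201 in the WT and IL34KO T-cell libraries. BM was the lowest of the 6 libraries for Spp1, Fabp5, Lpl, Abcg1 and Cd9 and the highest for Apoe and Cd36.

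**Figure D1:**
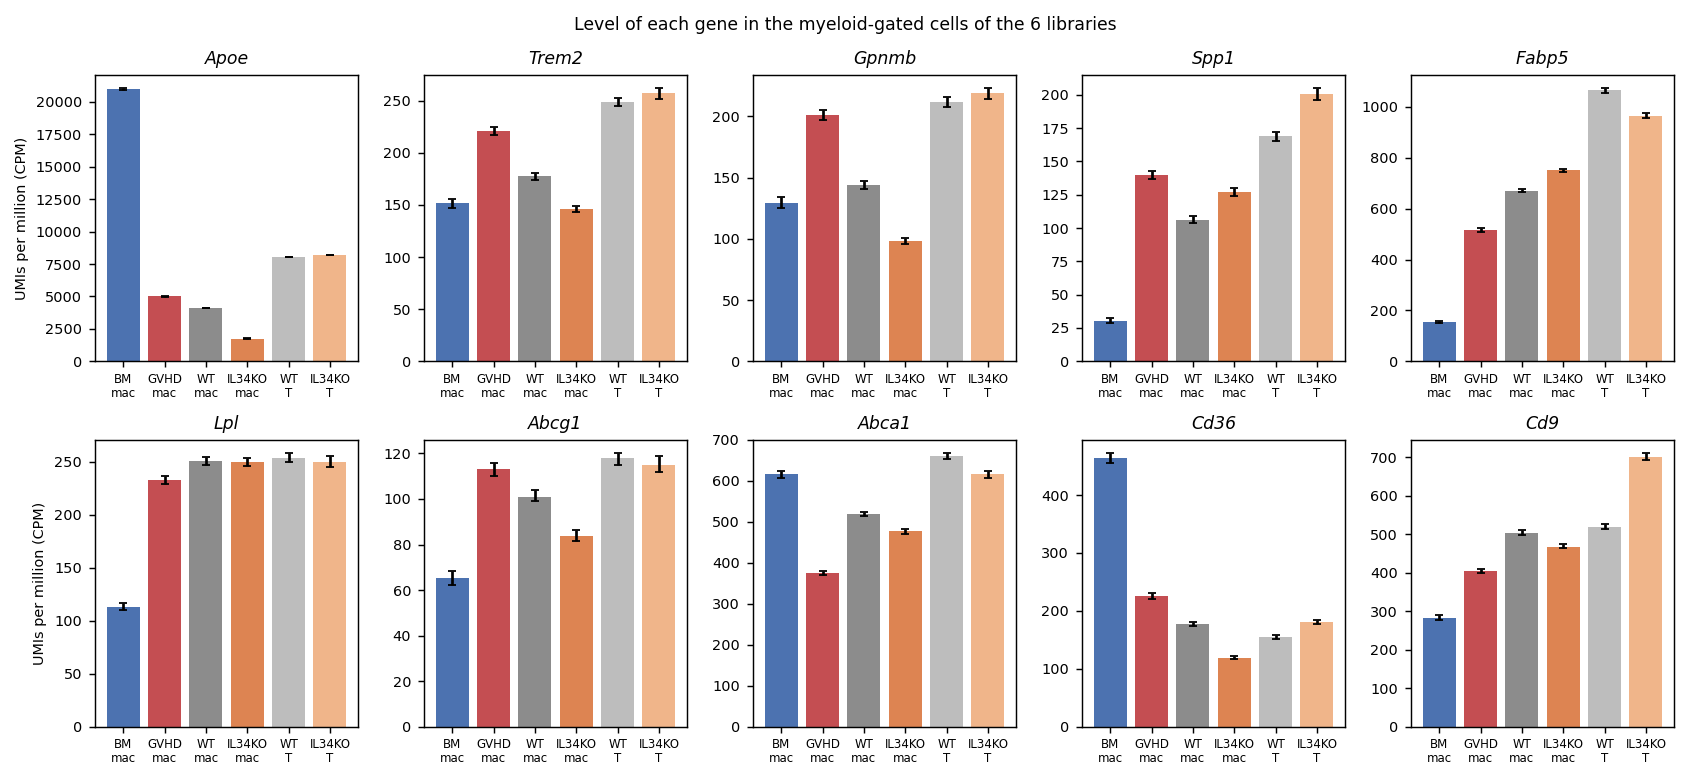
Level of each gene (CPM, linear axes from 0) in the myeloid-gated cells of the 6 libraries, with mac for a macrophage library and T for a T-cell library. Bars are 1 library each and error bars are exact 95% Poisson intervals; BM is highest for Apoe at 21011 CPM and lowest for Spp1 at 30.5 CPM.

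GVHD against BM asks how colon macrophages differ when donor T cells cause disease. Of the 10 genes 5 were at least 1.5-fold higher in GVHD: Spp1 by 4.58-fold (4.26 to 4.92), Fabp5 by 3.33-fold (3.22 to 3.44), Lpl by 2.05-fold (1.97 to 2.14), Abcg1 by 1.74-fold (1.65 to 1.83) and Gpnmb by 1.55-fold (1.49 to 1.61). Another 3 were at least 1.5-fold lower: Apoe by 4.21-fold (4.19 to 4.23), Cd36 by 2.06-fold (2.01 to 2.11) and Abca1 by 1.64-fold (1.61 to 1.68). Trem2 at 1.45-fold (1.4 to 1.51) and Cd9 at 1.43-fold (1.39 to 1.47) were higher but short of that fold. Among 9855 genes that reached 5 CPM in either library, 15.3% were as much higher and 18.8% as much lower, so such differences were common between these libraries. The median log2 ratio was 0.59 over the 10 genes and -0.01 over all measured genes. Scaling by trimmed mean of M values (TMM) moved every log2 ratio up by 0.16, and the higher genes then made up 59.8% of those past the fold in place of 44.8%. No member changed direction under that scaling, but Trem2 (0.70) and Cd9 (0.67) passed the fold and Abca1 (-0.56) fell short of it, which made 7 genes higher and 2 lower.

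The cells of these 2 libraries fell mostly in different clusters, which were made without integration. How far this reflects the kind of cell or the preparation of each library was not tested. Clusters were made with the 10 genes and the wider lipid lists left out, and cluster 1, mature macrophage-like, held 78.5% of BM and 0.174% of GVHD cells. GVHD cells fell mainly in cluster 5, led by Cc2d2b and Tmtc2 (34.2%), and cluster 14, led by the heat-shock genes Hspa1b and Hspa1a (26.9%), against 1.02% and 0.305% of BM cells. The summed level of 13 mature macrophage markers was 11788 CPM in BM and 5679 CPM in GVHD. Only clusters 4 and 15 had at least 50 cells from both, 139 in GVHD and 146 in BM altogether. With both libraries weighted to the same mix of these clusters, Gpnmb was 4.36-fold and Fabp5 2.93-fold higher in GVHD and Cd36 was 2.69-fold lower. Apoe was then 1.39-fold lower, Lpl 1.02-fold higher and Abca1 1.21-fold higher, the last against its pooled direction. Spp1, 4.58-fold higher when pooled, was 1.37-fold higher at the same mix, and its log2 ratio was 0.28 in coarser clusters. It was lower in GVHD in cluster 4 (63.5 CPM against 95.1 in BM) and higher in cluster 15 (190 against 52.7), on 19 to 128 UMIs. In coarser clusters the same-mix log2 ratio of Apoe was 0.06, that of Lpl -0.86 and that of Abca1 -0.01. The directions of these 3 genes among these few cells thus changed with the clustering, while Gpnmb (2.33), Fabp5 (1.17) and Cd36 (-1.42) kept theirs. Cd9 (0.98, and 1.14 in coarser clusters), Abcg1 (0.60 and 0.14) and Trem2 (0.37 and 0.08) were also higher in GVHD in both.

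Within cluster 15, mature macrophage-like, Gpnmb had 108 CPM in BM and 627 in GVHD, and Fabp5 had 252 and 1095. Cd36 there was 463 CPM in BM and 188 in GVHD. In cluster 4, monocyte-like, Gpnmb had 39.4 CPM in BM and 83.1 in GVHD, and Cd36 had 166 and 52.5. These values rest on 39 to 739 UMIs of a gene in a library.

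IL34KO against WT in the macrophage libraries addresses the effect of IL-34 in the recipient on donor macrophages. Apoe was 2.35-fold (2.34 to 2.37) lower in the library labelled IL34KO and was the only one of the 10 past 1.5-fold. Of 9232 measured genes 1.81% were at least 1.5-fold lower and 0.888% at least 1.5-fold higher, and the Apoe ratio was lower than that of all but 0.206% of them. Cd36 was 1.49-fold (1.44 to 1.54) and Gpnmb 1.46-fold (1.41 to 1.51) lower, Trem2 and Abcg1 1.21-fold each, and Spp1 was 1.19-fold (1.15 to 1.23) and Fabp5 1.12-fold (1.1 to 1.13) higher. Lpl was level, at a ratio of 0.995 (0.973 to 1.02). The median log2 ratio was -0.20 over the 10 genes and -0.01 over all measured genes. In cells without any UMI of another lineage's genes Spp1 went the other way, at a log2 ratio of -0.46, and Fabp5 at -0.16.

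The lower Apoe level was found in most kinds of cell. Of 12 clusters with at least 50 cells in both libraries, Apoe was lower in the library labelled IL34KO in 11, with log2 ratios from -1.77 to -0.31, and level in cluster 13, dendritic cell-like, at 0.02. In cluster 6, led by Lao1 and Ccl24, it had 11310 CPM in WT and 6430 in IL34KO, in cluster 7, led by Fap and Gdf15, 9477 and 7568, and in cluster 9, monocyte-like, 1326 and 781. The largest gap was in cluster 11, neutrophil-like, with 6694 and 1956 CPM. That cluster held 17.5% of WT and 25% of IL34KO cells and also carried macrophage genes (Csf1r 470 CPM, C1qa 1237 CPM). Clusters 11, 13, 16 and 18 were neutrophil-like, dendritic cell-like, with T-cell genes among the leading genes, or of low depth. Without these together the log2 ratio of Apoe was -1.05. With both libraries weighted to the same cluster mix, cluster 11 included, it was -0.93. The part of cluster 11 alone was not tested. Mature macrophage-like cells were 3.65% of WT and 1.88% of IL34KO cells.

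Apoe also differed between the libraries outside the myeloid gate, at a far lower level. T-cell-gated cells had 103 CPM (77.5 to 133) in the WT macrophage library and 35.5 CPM (24.6 to 49.6) in IL34KO, and epithelial-gated cells had 59.2 and 34.5 CPM. What these low levels contribute to the myeloid ratio was not tested.

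Among the other genes, Cd36 was lower in the library labelled IL34KO in 11 of the 12 clusters and Trem2, Abcg1 and Cd9 in 10 each. Gpnmb was lower in 8 and higher in 4. It had 251 CPM in WT and 96.1 in IL34KO in cluster 6 and 186 and 72.1 in cluster 11, while in cluster 7, where it was highest, it had 403 and 420. Spp1 and Fabp5 were higher in 9 of 12 each, and Lpl was split 6 to 6.

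**Figure D2:**
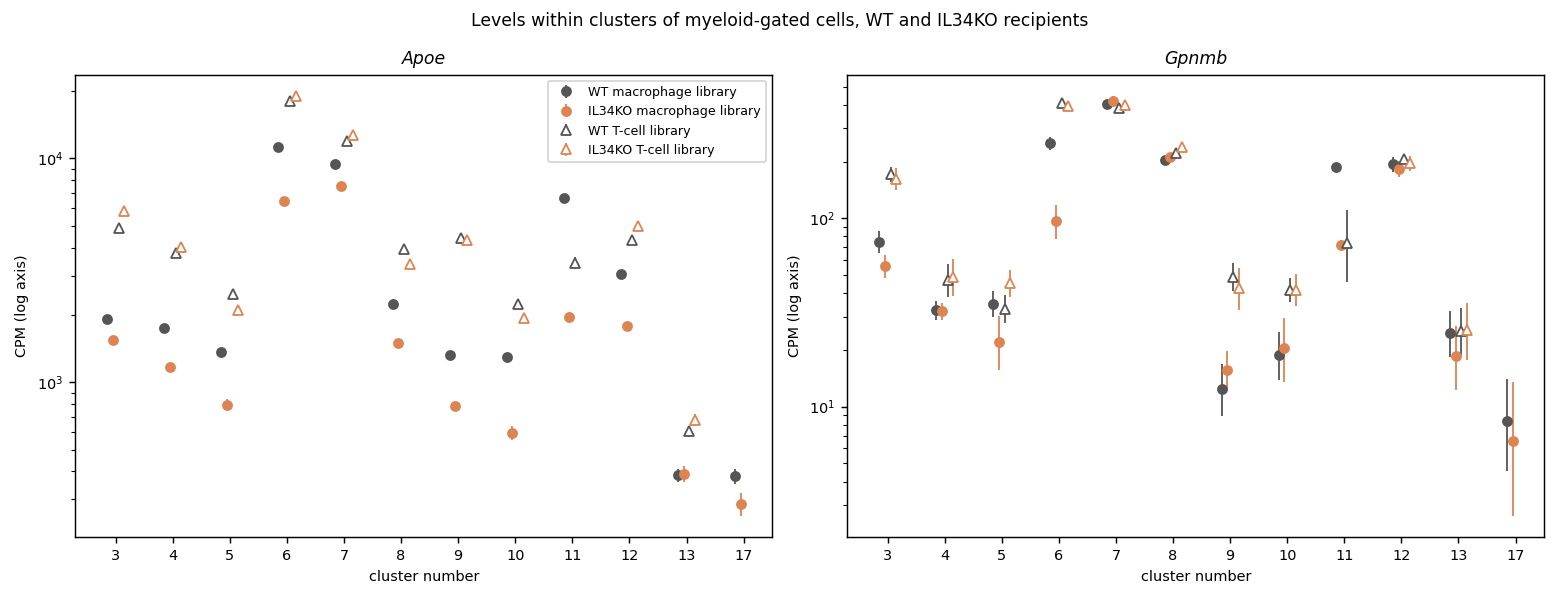
Apoe (left) and Gpnmb (right) in CPM on log axes within the 12 clusters that had at least 50 cells in both the WT and IL34KO macrophage libraries; circles are macrophage libraries and triangles the myeloid cells of T-cell libraries, with exact 95% Poisson intervals. The IL34KO circle lies below the WT circle for Apoe in 11 of 12 clusters, and the triangles of both recipients lie close together.

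In the myeloid cells of the T-cell libraries none of the 10 genes was past 1.5-fold between recipients, against 1.32% of 9224 measured genes higher and 0.401% lower. Cd9 was 1.35-fold (1.33 to 1.37) higher in the library labelled IL34KO and higher in 13 of 13 clusters compared. It was also higher there outside the myeloid gate. T-gated cells had 65.6 CPM (59.5 to 72.2) of Cd9 in WT and 87.4 CPM (79.5 to 95.8) in IL34KO. Epithelial-gated cells had 361 and 443 CPM, and stromal and endothelial cells 485 and 771 CPM. How far the myeloid difference in Cd9 is shared by the whole library was not tested. Spp1 was 1.19-fold (1.16 to 1.23) and Cd36 1.17-fold (1.13 to 1.21) higher, and Cd36 was higher in 13 of 13 clusters. Apoe was 1.02-fold (1.01 to 1.02) higher, with clusters split 7 to 6. Fabp5 was 1.1-fold and Abca1 1.07-fold lower, and Lpl and Abcg1 had intervals that held 1. The median log2 ratio was 0.03 over the 10 genes and 0.02 over all measured genes. Cluster 16 was led by Cfd and Svs5, with T-cell genes such as Gzma and Themis further down its leading genes. It held 2.21% of the WT and 9.16% of the IL34KO cells. Its T-cell, epithelial and neutrophil markers summed to 603, 605 and 639 CPM. Over all gated cells the 10 T-cell marker genes, none at 0, summed to 39.5 CPM in WT and 80.9 CPM in IL34KO. Some of the Cd36 intervals within clusters held 1, as in cluster 7 (1.03-fold, 0.938 to 1.13). In coarser clusters Cd36 was higher in 8 and lower in 1. The part of cluster 16 in the Cd9 and Cd36 ratios was not tested.

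**Figure D3:**
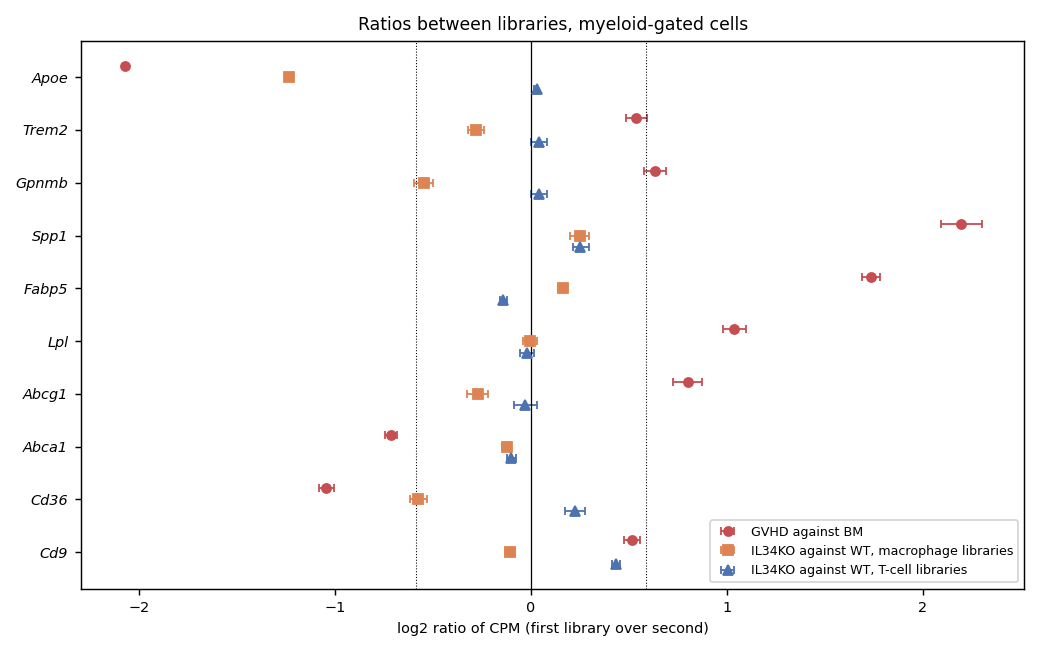
Log2 ratio of CPM for each gene in the 3 comparisons, first library over second, with exact 95% conditional binomial intervals for counting error; dotted lines mark 1.5-fold. In GVHD against BM 5 genes lie right of the upper line and 3 left of the lower one, while only Apoe in the macrophage libraries passes a line between IL34KO and WT.

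The 10 genes did not mark a single kind of myeloid cell. Summed over all libraries, Apoe was highest in cluster 1, mature macrophage-like (24795 CPM), followed by cluster 15, also mature macrophage-like (16632), and cluster 6 (15981). Cluster 1 held 28.9% of all Apoe UMIs with 7.88% of all UMIs. Gpnmb was highest in cluster 7 (415 CPM) and cluster 6 (363) over all libraries, but the libraries filled the clusters unequally and the order was not the same within each. Cluster 7 led for Gpnmb in the WT and IL34KO macrophage libraries and the IL34KO T-cell library, cluster 15 in GVHD (627 CPM), and cluster 1 in BM (149) and the WT T-cell library (667, 590 to 752). Fabp5 was highest over all libraries in cluster 7 (1671 CPM) and cluster 12 (1495), the cluster led by Arg1, which encodes the arginine-degrading enzyme arginase. Cd36 was highest over all libraries in clusters 2 (580 CPM) and 1 (437), both mature macrophage-like, but 1544 of the 1670 cells of cluster 1 were BM cells, and in the WT T-cell library cluster 1 had 185 CPM against 268 in cluster 5. Cluster 2 led for Cd36 in BM (844 CPM) and in the WT and IL34KO T-cell libraries (320 and 351), cluster 13 in WT macrophages (464) and cluster 5 in IL34KO macrophages (360) and GVHD (295). Cluster 18, with 62 cells of low depth, is left out of this ranking.

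Within each library Spp1 was the most concentrated of the 10 genes in few cells, by the share given below. Over clusters it was not the narrowest by every measure, as cluster 1 held 28.9% of Apoe UMIs with 7.88% of all UMIs. Cluster 8, led by Clmp and Inhba and with 930 CPM of Nos2, the inducible nitric oxide synthase, had 395 CPM of Spp1 and held 39.4% of its UMIs with 13.3% of all UMIs. Cluster 12 had 391 CPM and 13.9% of its UMIs. Both were also highest over all libraries for Lpl (387 and 391 CPM) and Cd9 (846 and 806 CPM), and cluster 12 was highest for Trem2 (325 CPM). Within libraries Spp1 was highest in cluster 8 in the WT and IL34KO libraries of both sorts and in cluster 12 in GVHD (538 CPM), while Lpl was highest in cluster 13 in WT macrophages (424) and cluster 10 in IL34KO macrophages (512). Cluster 17, monocyte-like with Vcan and Ly6c2, was lowest for Apoe (382 CPM), Gpnmb (8.15), Abca1 (106), Trem2 (70.7) and Cd36 (27.1). Within a library, the tenth of cells with the most Spp1 held 65.7% of its UMIs in GVHD and 86.9% to 100% in the other libraries. This was the largest such share of the 10 genes in each library. Only 8.19% of BM cells had a Spp1 UMI, so the 100% in BM was fixed in advance. In the other libraries 20.6% to 40.1% of cells had one, and such sparse detection also raises the share.

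**Figure D4:**
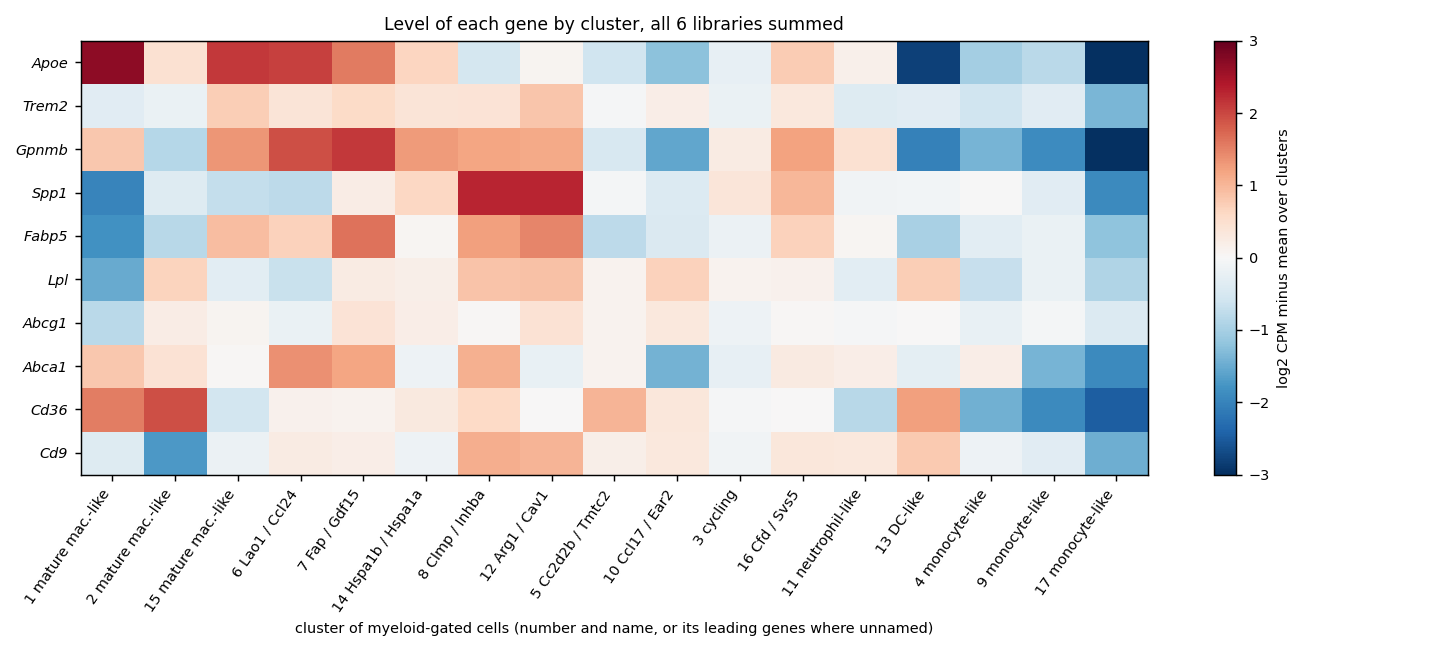
Level of each gene in 17 clusters of myeloid-gated cells, as log2 CPM minus the gene's mean over these clusters, with colours ending at 3 either way; cluster 18 (62 cells) is not drawn. Apoe and Gpnmb are high on the left, except for Gpnmb in cluster 2 (52.4 CPM), Spp1 is highest in clusters 8 and 12, and cluster 17 is low for nearly all of the genes.

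Across 56 sums of a library and a cluster with at least 100 cells, log2 levels of Apoe and Gpnmb had a Pearson r of 0.83, Fabp5 and Gpnmb 0.80, Gpnmb and Trem2 0.76 and Abca1 and Gpnmb 0.75. Apoe and Lpl had -0.29, and both transporters, Abca1 and Abcg1, only 0.11. These sums share libraries and depth and are not independent, so r is a description. Among 4951 genes compared, those most like Apoe were Ms4a7 (0.92), Tmem37 (0.91) and Lgmn (0.89), and those most like Gpnmb were Syngr1 (0.88), Fbxo32 (0.87) and Mmp2 (0.85). Abca1 was closest to Pitpnc1 (0.93), Mertk (0.92) and Fmn1 (0.92), Trem2 to Pld3 (0.85), Psap (0.84) and Fbxo32 (0.82), and Fabp5 to Syngr1 (0.90), Ctsd (0.90) and Lgals3bp (0.89). Spp1 was closest to Cav1 (0.83), Lpl to Anxa4 (0.88), Cd36 to Kitl (0.87), Cd9 to Clec4n (0.87) and Abcg1, with the lowest likeness, to Pon2 (0.71).

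Genes were also compared cell by cell after random thinning to 2000 UMIs a cell, and 71 to 546 shallower cells of a library were left out. A Gpnmb UMI was found in 26.2% (21.2 to 31.7) of BM cells with Fabp5 and 9.31% (7.92 to 10.8) of those without, and in 35.4% and 12% of GVHD cells. In WT macrophages the shares were 23.5% and 6.35%, in IL34KO macrophages 19.3% and 3.9%, and in the WT and IL34KO T-cell libraries 31.1% and 10.5%, and 33.4% and 11.2%. The share was thus 2.82 to 4.96 times as high in cells with Fabp5, in all 6 libraries. Gpnmb was likewise 3.01 to 3.84 times as frequent in cells with Apoe, Cd36 1.54 to 2.32 times in cells with Lpl, and Spp1 1.55 to 3.3 times in cells with Lpl.

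**Figure D5:**
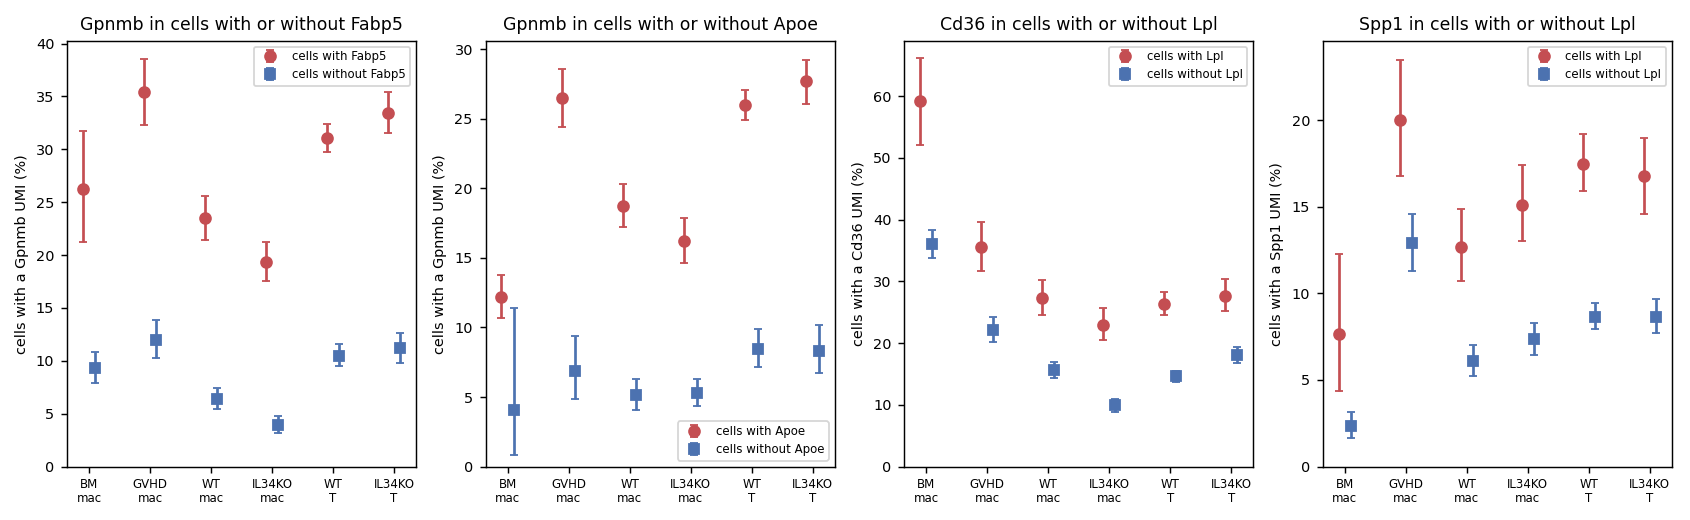
Share of thinned myeloid cells with a UMI of 1 gene (vertical axis, percent) among cells with (circles) and without (squares) a UMI of another, by library, with exact 95% Clopper-Pearson intervals. Circles lie above squares in all 6 libraries for the 4 pairs, which were picked after their values were seen.

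Shares of thinned cells with a UMI were set beside T-cell-gated cells of the same library. Apoe was found in 96.1% of BM, 76.6% of GVHD, 60.4% of WT and 47.4% of IL34KO macrophages and in 78.8% and 76.3% of the WT and IL34KO T-cell libraries, against 4.2% to 35.4% of T-gated cells; before thinning its share was 68.6% to 98.8%. Gpnmb was found in 10.4% to 23.1% of myeloid cells and in 0% to 1.43% of T-gated cells, where the 0 of 101 GVHD cells allows a share of up to 2.97%. The other shares of 0 allow up to 2.1% to 4.29%. They were those of Trem2 in 70 WT cells and of Cd36 in the GVHD, WT and IL34KO macrophage libraries. Lpl was also at 0 in T-gated cells of the BM, WT and IL34KO macrophage libraries, and Abca1 in those of GVHD and WT. Trem2 was found in 21.1% to 36.7% against 0% to 1.4%, and Cd36 in 13.2% to 38.4% against 0% to 1.04%. For Spp1 the T-gated share was close: 11% (10.4 to 11.8) of myeloid and 10% (8.44 to 11.8) of T-gated cells in the WT T-cell library. The myeloid and T-gated intervals of Spp1 overlapped in every library except GVHD, where the shares were 14.8% (13.3 to 16.3) and 4.95% (1.63 to 11.2). In the others its share thus did not stand apart from that of T-gated cells. As a level, Spp1 had 123 CPM (95.1 to 156) in T-gated and 106 CPM in myeloid cells of the WT macrophage library. In every other library its level was higher in myeloid cells, with intervals that did not overlap. T-gated and myeloid cells had 5.9 and 30.5 CPM in BM, 53.8 and 140 in GVHD, and 21.9 and 127 in IL34KO macrophages. The WT T-cell library had 112 and 169 CPM and the IL34KO T-cell library 89.3 and 201. T-gated cells were shallower before thinning, with a median of 3274 to 6034 UMIs.

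Other lineages carried some of the genes. Cd9 had 346 CPM in epithelial-gated cells of all libraries together, and in BM stromal and endothelial cells 405 CPM, with 202 CPM of Lpl. In T-gated cells of all libraries together Apoe had 132 CPM, Spp1 90.8, Fabp5 81.9, Cd9 73.1 and Abcg1 31.7, against 6752, 134, 729, 488 and 102 CPM in myeloid cells, so that Spp1 was the gene with the closest levels. Spp1 had only 2.56 CPM in epithelial-gated and 2.48 CPM in stromal and endothelial cells of all libraries together, so these lineages did not share its T-gated level. The source of Spp1 UMIs in T-gated cells was not tested. Trem2 and Gpnmb stayed at or under 4.34 CPM in T-gated and epithelial-gated cells of all libraries together.

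Wider lists of 122 lipid genes, of which 121 were matched, placed the set in its pathways. Counts of list genes past 1.5-fold between GVHD and BM stand beside 15.3% higher and 18.8% lower over all measured genes, and the lower counts of the LXR and PPAR and lysosomal lists and the higher count of the uptake list lie near those shares. Between GVHD and BM the cholesterol synthesis list had the highest median log2 ratio, 0.44, with 5 of 17 measured genes at least 1.5-fold higher and 0 lower, against -0.01 over all measured genes. Among these genes, Mvd was 2.93-fold, Hmgcs1 1.95-fold and Cyp51 1.44-fold higher in GVHD. The list of TREM2 signalling and lipid-associated macrophage genes had a median of 0.20, with 5 higher and 2 lower of 18, led by Rgcc (5.15-fold), Atp6v0d2 (4.68-fold, a subunit of the lysosomal proton pump), Mmp12 (3.49-fold, macrophage elastase) and Apoc2 (2.56-fold, the cofactor of lipoprotein lipase).

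Targets and regulators of the sterol and fatty acid receptors LXR and PPAR had a median of 0.13, with 6 higher and 4 lower of 19. The desaturase Scd2 was 4.99-fold, Smpdl3a 3.21-fold, Ppargc1b 2.99-fold and Cpt1a, which admits fatty acids to mitochondria, 1.72-fold higher. Pparg, named after its values were seen, had 75.8 CPM in BM and 9.01 in GVHD. Droplet and esterification genes had a median of 0.13, with 3 higher and 1 lower of 14, and Hilpda, an inhibitor of triglyceride breakdown, was 3.84-fold higher. The lysosomal lipid list had -0.10, with 1 higher and 3 lower of 18, and Pla2g15 was 1.84-fold lower.

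Uptake receptors had a median of -0.23, with 2 higher and 5 lower of 13. Stab1, a scavenger receptor of resident macrophages, was 8.84-fold (8.27 to 9.46) lower in GVHD, Lpar6 1.71-fold, and Cd68 and Cd300a 1.6-fold each. The receptors Olr1 (6.87 CPM in BM, 79.9 in GVHD) and Cd300lf (20.2 and 180 CPM), named after their values were seen, were higher. Transcription factors had a median of -0.36, with 3 higher and 5 lower of 12. Bhlhe41 was 4.44-fold, Maf 2.95-fold and Tfeb, a regulator of lysosomal genes, 2.05-fold lower.

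Between IL34KO and WT macrophages the 7 list medians lay between -0.09 and 0.01, and 4 of the list genes were past 1.5-fold, a count near the 0.888% higher and 1.81% lower of all measured genes. Pltp, the phospholipid transfer protein, was 1.51-fold (1.43 to 1.59) lower in the library labelled IL34KO and Pparg had 7.81 CPM in WT and 4.86 in IL34KO. G0s2, an inhibitor of triglyceride lipase, was 1.59-fold (1.56 to 1.62) higher beside the higher neutrophil marker sum, whose part in it was not tested, and Cst7 had 7.63 and 14.4 CPM. In the T-cell libraries the medians lay between -0.03 and 0.09, and few list genes were past the fold, beside 1.32% higher and 0.401% lower of all genes. G0s2 was lower (17.8 CPM in WT and 11.2 in IL34KO) while Cebpb, a transcription factor of myeloid cells, was higher (706 and 1087 CPM) in the library labelled IL34KO.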

How the data were processed

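The authors deposited, for each of 6 libraries, a matrix of UMI counts per gene and barcode, made with Cell Ranger 7.0.1 on mm10 per the submitters' processing notes. Cells needed 500 genes or more and no more than 10% mitochondrial UMIs, and Scrublet doublets were removed at 0.8% per 1000 barcodes. Where its automatic threshold marked under 0.5% of barcodes, the expected number with the highest scores was removed. The myeloid gate required a UMI of at least 4 of 12 genes, with summed UMIs at least 5 times those of other-lineage genes. Gated libraries held 27957833 to 61210375 UMIs.

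Counts were summed per library and divided by the gated total. Levels carry exact Poisson, ratios exact conditional binomial and shares exact Clopper-Pearson intervals at 95%, covering counting error only. A gene was measured at 5 CPM in 1 of 2 libraries, and the fold was 1.5. Clusters used scanpy 1.11.5 (2000 variable genes, 30 components, 15 neighbours, Leiden resolution 1, no integration). A cluster took a name when 3 or more of its markers each had a UMI in 25% of its cells, with a mean log2 excess of 0.4, thresholds set after the clusters were seen. A count of 0 was taken to allow up to 3 counts. TMM factors came from edgeR 4.0.16, used for scaling only. Ratios and intervals were tested on simulated data. Coordinates came from GENCODE, promoter windows from RefSeq.

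The 10 genes and the wider lists were chosen with earlier results of these data known. Named list genes were up to 4 per list and comparison, reaching 20 CPM, that moved most in the sign of the median; likeness used log2(CPM + 5) and took the 3 closest genes. Results were recomputed under 17 other settings and under 1 added after the data were seen, which left out 4 clusters. Labels gave no replicates. Some genes of the wider lists are not reported here.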

Additional observations from a re-analysis of the deposited data

Results flagged for a closer look

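For 6 genes the ratio of the library labelled IL34KO to WT went opposite ways in the macrophage libraries and in the myeloid cells of the T-cell libraries, with both counting intervals clear of 1. With 1 library in each group the difference was not tested. The log2 ratio in the T-cell libraries minus that in the macrophage libraries was 1.26 for Apoe, 0.79 for Cd36, 0.59 for Gpnmb, 0.54 for Cd9, 0.32 for Trem2 and -0.30 for Fabp5. For Apoe the ratio was -1.24 in the macrophage libraries and 0.02 in the T-cell libraries, and for Cd36 -0.57 and 0.22. The T-cell library ratios of Apoe, Trem2 and Gpnmb were 0.02, 0.04 and 0.04, and each had the other sign under at least 1 alternative. In the macrophage libraries the ratios of Fabp5 (-0.16 to 0.24 over the alternatives) and Cd9 (-0.12 to 0.04) also changed sign, so that of the 6 genes only Cd36 kept both directions under all alternatives run. The sorts of these libraries differed, and the neutrophil marker sum was 2269 and 4663 CPM in the WT and IL34KO macrophage libraries and 164 and 101 CPM in the T-cell libraries.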

How the results depend on the processing

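No paired analysis was possible because each group was 1 library and the labels carry no replicate numbers. Weighting GVHD and BM to the same cluster mix, which compared 139 and 146 cells, turned Abca1 from -0.72 to 0.28. It left Apoe at -0.47 in place of -2.07 and Spp1 at 0.46 in place of 2.19. In coarser clusters Apoe was 0.06, Spp1 0.28 and Lpl -0.86 in place of 1.04. Apart from that weighting, none of the 380 recomputed log2 ratios of the 10 genes turned a value past 1.5-fold to the other sign, and Apoe stayed past that fold in all 14 alternatives of GVHD against BM and all 12 of IL34KO against WT macrophages. The median log2 ratio of the 10 genes in GVHD against BM, 0.59, was 0.74 with TMM, 0.73 with median of ratios, 0.67 in clusters named monocyte-like or mature macrophage-like, 0.66 after thinning, 0.67 with cells weighted equally and 0.48 with shared barcodes kept. In IL34KO against WT macrophages, -0.20, it was -0.33 in cells with no other-lineage UMI and -0.04 in the named clusters, and 2 genes were at least 1.5-fold lower in cells with no other-lineage UMI and with cells weighted equally. In the T-cell libraries, 0.03, it was -0.01 with median of ratios, 0.06 under strict filters, -0.01 with no other-lineage UMI and 0.07 in the named clusters, where 1 gene was at least 1.5-fold higher. The cause was not tested. Gpnmb was past the fold in 12 of 14 and Abca1 in 11 of 14 alternatives of GVHD against BM. Of the 380 ratios 172 moved beyond their counting interval, 2 of 42 list medians left the median of their genes' counting intervals when the CPM minimum was changed, and all 60 shares of cells with a UMI differed without thinning, which by construction leaves more UMIs in each cell.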
